A study of Homo sapiens with 4 samples.

Results

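The kinesins, centromere proteins and spindle genes that carry a cell through mitosis were examined in Jurkat, an established line of human leukemic T cells. Members were taken by gene symbol: every kinesin (KIF), every centromere protein named CENP, the checkpoint genes BUB1, BUB1B and BUB3, the Aurora kinases AURKA and AURKB, CKAP2, CKAP2L and CKAP5, the A- and B-type cyclins, and CDK1, CDC20, PLK1, TPX2, NUSAP1, TTK, HMMR, TOP2A, MKI67 and REEP4. This gave 78 transcript rows of 71 genes among the 16328 rows of the deposited table. The cells had been transduced by lentivirus, in the presence of polybrene, with the pGreenPuro vector carrying short hairpin RNAs against SLEAR (3 libraries, SLEAR shRNA-1, -2 and -3), and were set against 1 library labelled Control. What the Control cells carried is not stated in its label, nor whether the numbers 1 to 3 mark different hairpins or repeats, nor if each library was a culture of its own, so any p-value reflects how much these libraries varied among themselves, which may be technical variation. Below, the words "the hairpins" stand for these 3 libraries and do not mean 3 different hairpins. No row carried the name SLEAR, so its own RNA level is not analysed here.

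At mitosis the cyclins, with their kinase CDK1, set off the breakdown of the interphase cell, kinesin motors and microtubule-binding proteins build the bipolar spindle, and the CENP proteins hold the kinetochore on the centromere, where microtubules attach. BUB and TTK proteins delay anaphase until every chromosome is attached, by holding back CDC20, the activator of the anaphase promoting complex. Many of these genes are transcribed mainly in G2 and M phase, so their RNA in a growing culture also follows the share of cells in those phases, and in bulk RNA a change in that share and a change in RNA per cell cannot be told apart.

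Each library holds reads from next to the poly(A) tail, and levels are the deposited RPM (reads scaled to a common library total). Depths estimated from the step between low values were 7.049, 7.524 and 4.814 megareads for the hairpin libraries and 8.385 megareads for Control, so that 0 RPM allows a level of up to 0.399 to 0.623 RPM with SLEAR shRNA and 0.358 RPM in Control by counting error alone. SLEAR shRNA-3 stood apart: of the 16268 rows left after identical rows were merged, 6941 were at 0 there. SLEAR shRNA-1 had 2641, SLEAR shRNA-2 had 2314 and Control had 2984. Results that rest on SLEAR shRNA-3 are therefore also given without it. Of 14 rows of T lymphocyte markers, 12 were tested, and their summed level was 4488, 4392 and 4470 RPM with the hairpins and 4000 RPM in Control. Of the B cell marker rows, 2 were tested and both were higher in every hairpin library, with CD79A at 20.7, 18.3 and 21.6 RPM against 12.05 RPM in Control, and the part of this in the results was not tested. The tested myeloid, fibroblast and epithelial markers each summed to at most 3.19 RPM in any library, and no erythroid marker passed the filter.

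The members with the smallest p-values included several genes of the spindle. CKAP2L, a microtubule-associated protein of the mitotic spindle, was at 165, 153 and 141 RPM across SLEAR shRNA-1, -2 and -3, with Control at 332 RPM. All 3 hairpin libraries lay together, well below Control. Its relative CKAP2, which also binds spindle microtubules, was at 116, 126 and 114 RPM across SLEAR shRNA-1, -2 and -3, with Control at 179.7 RPM. REEP4, which sits in the endoplasmic reticulum and helps to clear membrane from chromosomes in mitosis, was at 176, 166 and 216 RPM across SLEAR shRNA-1, -2 and -3, with Control at 83.4 RPM, so that every hairpin library was higher than Control. CDC20 was at 189, 197 and 190.3 RPM across SLEAR shRNA-1, -2 and -3, with Control at 144 RPM, with the 3 hairpin libraries close to each other and all above Control.

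These sizes were tested with limma-trend on log2(RPM + 1) over 12467 rows, those that reached 1 RPM in any library, of which 67 were member rows. The log2 difference of SLEAR shRNA over Control was -1.12 ± 0.19 (SE) for CKAP2L, which had the smallest p among the members. By the same test it was -0.59 ± 0.19 (SE) for CKAP2, 1.14 ± 0.24 (SE) for REEP4 and 0.41 ± 0.18 (SE) for CDC20. No member passed an adjusted p under 0.05, and no row of the table did (0% of 12467 called, smallest adjusted p = 0.992 by limma-trend). Before adjustment, 1 member row was higher and 2 were lower at p under 0.05, among 92 higher and 223 lower rows of the table. With limma-voom, run on reads estimated from the steps, 0 rows were called, with 68 higher and 223 lower before adjustment. With 1 Control library an exact permutation test cannot go below p = 0.25, and the fit takes the spread of the hairpin libraries for that of Control.

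**Figure D1:**
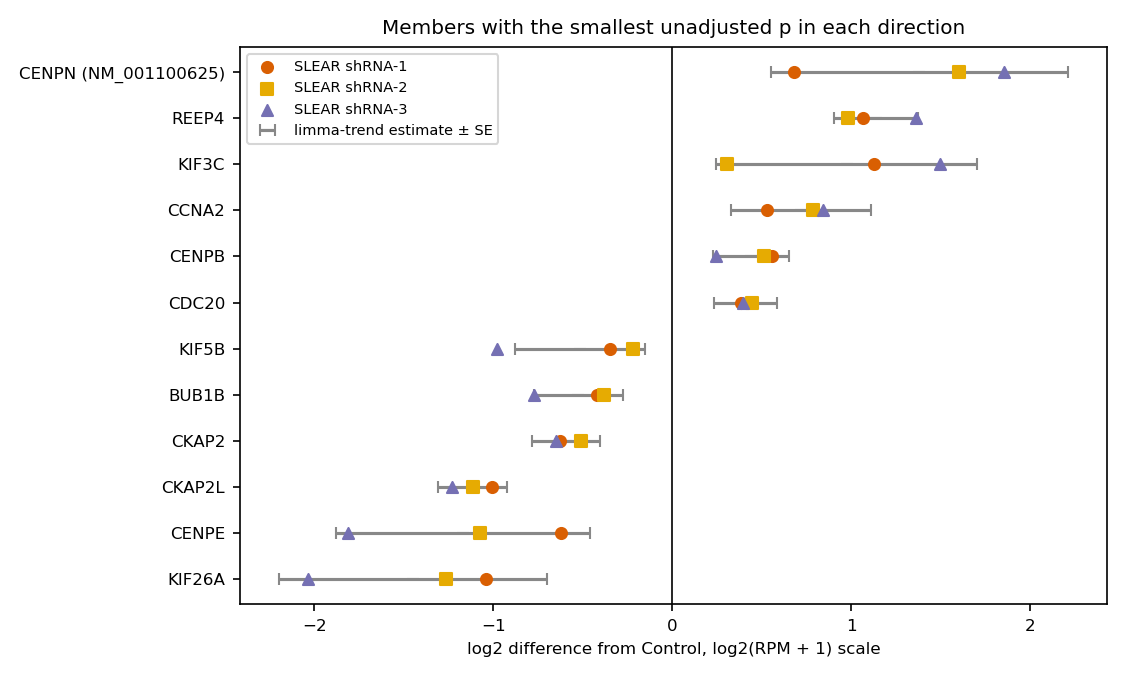
Log2 difference of each SLEAR shRNA library from the Control (x axis, log2(RPM + 1) scale) for the 6 member rows with the smallest unadjusted p in each direction (y axis); grey marks give the limma-trend estimate with its standard error. The 3 libraries lie on 1 side of 0 for all 12 rows and lie close together for CDC20, CKAP2 and CKAP2L. Choosing rows by small p from the same values favours both patterns.

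The other members with the smallest p came from several roles. CENPB, which binds a motif in the satellite DNA of centromeres, was at 493, 478 and 398 RPM with the hairpins and 335 RPM in Control, a log2 difference of 0.44 ± 0.21 (SE). CCNA2, the cyclin of S phase and G2, was at 18.2, 21.9 and 22.8 RPM with the hairpins and 12.3 RPM in Control, a log2 difference of 0.72 ± 0.39 (SE). BUB1B, the BubR1 subunit of the mitotic checkpoint complex, was at 121, 124 and 93.9 RPM with the hairpins and 161 RPM in Control, a log2 difference of -0.52 ± 0.25 (SE). KIF5B, the heavy chain of conventional kinesin, was at 120.2, 131 and 77.1 RPM with the hairpins and 153 RPM in Control, a log2 difference of -0.52 ± 0.37 (SE), and its distance from Control was largest in SLEAR shRNA-3. The remaining 4 were low rows: KIF26A, a kinesin-like protein, had a log2 difference of -1.45 ± 0.75 (SE), and CENPE, a kinesin of the kinetochore, one of -1.17 ± 0.71 (SE). KIF3C, of the kinesin-2 family, had one of 0.98 ± 0.73 (SE), and the CENPN row NM_001100625 one of 1.38 ± 0.83 (SE). These 4 had at most 14.2 RPM in any library, and all 12 rows of the plot of log2 differences had a limma-trend adjusted p of 0.992. The CENPE values were identical to those of the row LOC100507373, and whether the rows share reads was not tested.

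When SLEAR shRNA-3 was left out and rows were kept only where their mean log2(RPM + 1) reached 4, 5 of 41 member rows passed limma-trend at an adjusted p under 0.05. Over all 4851 rows of that fit, 7.11% were called higher and 7.26% lower, and the 3 and 2 of 41 member rows were shares near these. CKAP2L fell (log2 difference -1.06 ± 0.15 (SE), adjusted p = 4.27e-09), as did CKAP2 (-0.57 ± 0.17 (SE), adjusted p = 0.00932). REEP4 rose (log2 difference 1.03 ± 0.17 (SE), adjusted p = 2.08e-07), as did CENPB (0.54 ± 0.14 (SE), adjusted p = 0.0023) and the CENPN row NM_018455 (0.71 ± 0.20 (SE), adjusted p = 0.00765). In SLEAR shRNA-3, CKAP2L, CKAP2, REEP4 and CENPB lay on the same side of Control as in the others. The CENPN row NM_018455 did not, at 67.8, 62.7 and 31.6 RPM across SLEAR shRNA-1, -2 and -3, with Control at 39.6 RPM. The mean used to keep rows was taken over all 4 libraries, so SLEAR shRNA-3 still helped to decide which rows were fitted. The spread in that fit was pooled completely over rows (infinite prior degrees of freedom), and without the mean filter the same 3 libraries called 0 rows (smallest adjusted p = 0.368 by limma-trend), with 781 higher and 902 lower before adjustment.

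The RNA of these genes can be set beside their promoters, since many genes of G2 and M phase carry a CHR element (cell cycle genes homology region, TTTGAA or TTCGAA) near the start site and CCAAT boxes upstream of it, which DREAM and MYB-MuvB complexes and NF-Y are known to bind. Windows of 300 bases, from 250 before to 50 after the start, are shown for CKAP2L and CKAP2, the 2 members lower with the smallest p, for CDC20, which lay above Control, and for CDK1 and CCNB1, the core mitotic kinase and its cyclin. They come from RefSeq (GRCh38.p14), each on the strand of its gene, and capitals mark CHR and CCAAT matches on either strand.
CKAP2L, chr2:112764560-112764859, minus strand: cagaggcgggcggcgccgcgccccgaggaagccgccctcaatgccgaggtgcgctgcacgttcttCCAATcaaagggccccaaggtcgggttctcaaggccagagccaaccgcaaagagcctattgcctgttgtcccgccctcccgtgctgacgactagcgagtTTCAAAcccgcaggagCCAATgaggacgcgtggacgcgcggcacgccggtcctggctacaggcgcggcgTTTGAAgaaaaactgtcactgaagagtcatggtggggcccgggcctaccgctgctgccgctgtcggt
CKAP2, chr13:52455738-52456037, plus strand: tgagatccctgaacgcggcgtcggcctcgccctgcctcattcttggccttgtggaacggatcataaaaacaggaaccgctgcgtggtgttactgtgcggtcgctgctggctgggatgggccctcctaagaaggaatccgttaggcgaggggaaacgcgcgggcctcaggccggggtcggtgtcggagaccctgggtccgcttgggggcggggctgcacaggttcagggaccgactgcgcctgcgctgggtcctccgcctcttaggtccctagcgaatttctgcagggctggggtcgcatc
CDC20, chr1:43358731-43359030, plus strand: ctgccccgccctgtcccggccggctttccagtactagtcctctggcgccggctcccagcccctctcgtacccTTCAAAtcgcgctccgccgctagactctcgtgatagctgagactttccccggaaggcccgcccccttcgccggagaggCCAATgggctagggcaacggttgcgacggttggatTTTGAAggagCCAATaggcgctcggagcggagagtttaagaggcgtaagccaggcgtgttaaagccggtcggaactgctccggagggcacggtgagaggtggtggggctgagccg
CDK1, chr10:60778081-60778380, plus strand: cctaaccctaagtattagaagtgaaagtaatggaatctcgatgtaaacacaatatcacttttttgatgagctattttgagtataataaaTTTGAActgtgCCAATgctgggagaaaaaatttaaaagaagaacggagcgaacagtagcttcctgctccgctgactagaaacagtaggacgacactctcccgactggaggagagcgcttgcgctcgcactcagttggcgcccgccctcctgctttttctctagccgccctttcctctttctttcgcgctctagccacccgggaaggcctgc
CCNB1, chr5:69166900-69167199, plus strand: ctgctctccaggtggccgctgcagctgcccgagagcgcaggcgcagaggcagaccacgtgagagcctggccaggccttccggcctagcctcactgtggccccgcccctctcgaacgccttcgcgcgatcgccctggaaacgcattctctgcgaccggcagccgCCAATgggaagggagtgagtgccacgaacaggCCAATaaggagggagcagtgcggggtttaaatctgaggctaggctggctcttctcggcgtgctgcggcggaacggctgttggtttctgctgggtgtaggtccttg

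CKAP2L and CDC20 each held 2 CHR and 2 CCAAT matches, and the first lay below Control and the second above it in all 3 hairpin libraries. Any relation of matches to the direction of the RNA difference was not tested. In CKAP2L the CHR match nearest the start began at position -17 relative to the start, and in CDC20 at -65. CDK1 held 1 of each, CCNB1 held 2 CCAAT matches and no CHR match, and CKAP2, which like CKAP2L lay below Control, held neither in this window. A promoter was found for 59 of the 71 member genes, of which 50.8% held a CHR match, against 16.6% of all 27305 promoters. A CCAAT match was found in 61.0% of the member promoters and in 35.7% of all, and both in 45.8% and 6.58%. Among genes with a row of at least 10 RPM, 62.9% of 35 member promoters held a CHR match, against 10.7% of 4382. By role, 10 of 13 mitotic kinesins and 6 of 7 spindle and chromosome genes held a CHR match, against 2 of 14 other kinesins. A match is a run of letters, not a site shown to be bound, and the CHR and CCAAT letters can share a base at their ends.

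Most member rows were not on 1 side of Control in all 3 hairpin libraries. Of the 67 tested member rows, 9 were higher in all 3 SLEAR shRNA libraries than in Control (13.4%), against 17.8% of all tested rows, and 21 were lower in all 3 (31.3%), against 28.7% of all tested rows. Among the 45 member rows with a mean of at least 10 RPM over the 4 libraries, 7 were higher in all 3 (15.6%), against 23.9% of all 5853 such rows, and 14 were lower (31.1%), against 26.2%. The median log2 difference of these 45 rows from Control was 0.03 for SLEAR shRNA-1, -0.02 for SLEAR shRNA-2 and -0.37 for SLEAR shRNA-3, while over all 5853 rows it was 0.01, -0.02 and -0.04. In SLEAR shRNA-1 and -2 the members thus centred where other rows did, while in SLEAR shRNA-3 their median was lower than that of all rows. Without SLEAR shRNA-3, 22 of the 67 member rows were higher than Control in both remaining libraries (32.8%), against 35.1% of all tested rows, and 25 were lower (37.3%), against 41%.

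**Figure D2:**
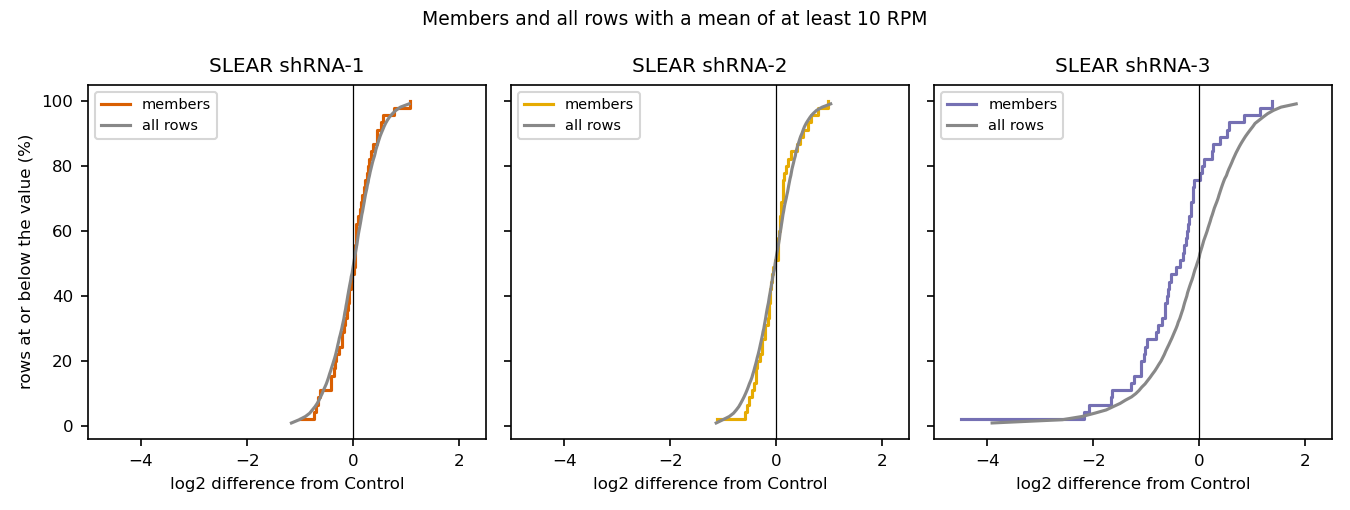
Cumulative share of rows (y axis, percent) by log2 difference from Control (x axis, log2(RPM + 1) scale) in each SLEAR shRNA library, for the 45 member rows (coloured) and all 5853 rows (grey, percentiles 1 to 99) with a mean of at least 10 RPM. The curves run together in SLEAR shRNA-1 and -2, and the member curve lies to the left in SLEAR shRNA-3, where its median is -0.37 against -0.04.

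The member levels in SLEAR shRNA-3 were also low against the other hairpin libraries. Of the 45 member rows, SLEAR shRNA-3 was the lowest of the 4 libraries in 30 (66.7%) and the highest in 7 (15.6%), against 40.8% and 36.7% of all rows of at least 10 RPM. Set against the mean of SLEAR shRNA-1 and -2, the median log2 difference of SLEAR shRNA-3 was -0.39 over the members and -0.03 over all these rows, while SLEAR shRNA-1 and -2 differed from each other by a median of 0.02 over the members. At least a 2-fold lower level was found in 9 members (20% against 12.6% of all rows) and at least a 2-fold higher level in 1 (2.22% against 8.25%). SLEAR shRNA-3 is a single library, with the lowest depth and the most rows at 0, so this difference has no replicate and the part of depth and of RNA quality in it was not tested. Of the 45 member rows, 1 was at 0 in SLEAR shRNA-3, against 0.974% of all rows of at least 10 RPM.

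**Figure D3:**
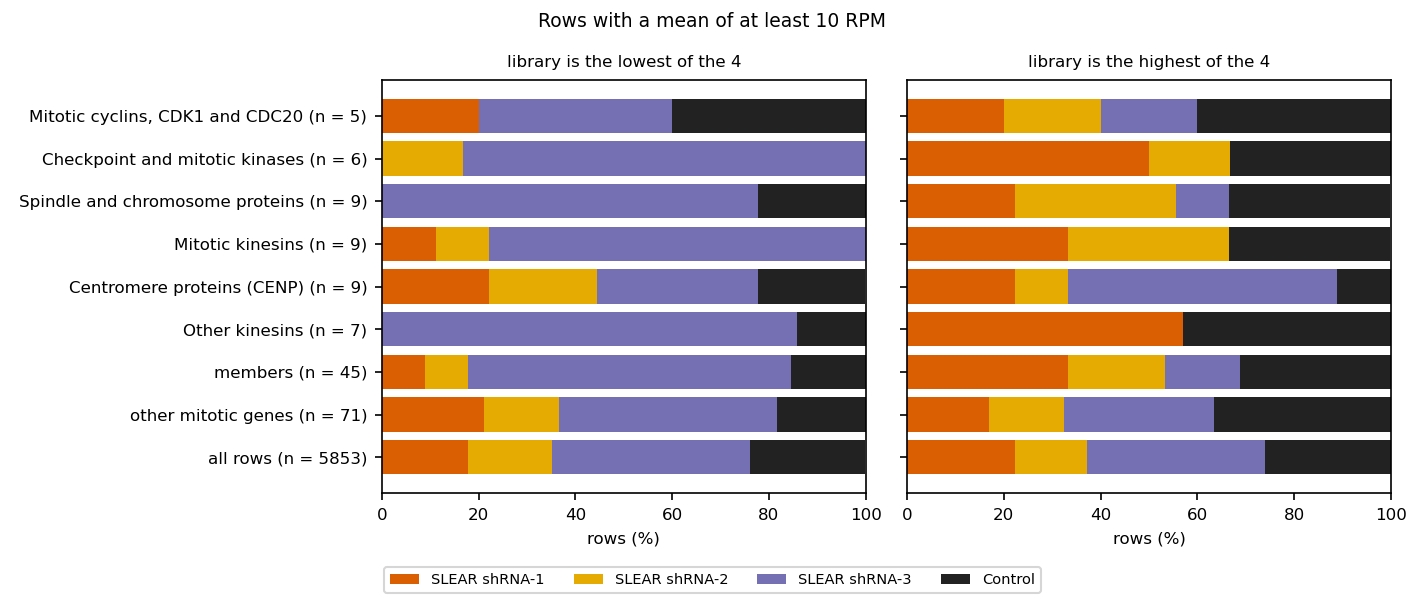
Share of rows (x axis, percent) in which each library was the lowest (left) or the highest (right) of the 4, by role and for all members, for other mitotic genes listed by complex, and for all rows with a mean of at least 10 RPM; n is the number of rows. SLEAR shRNA-3 was the lowest in 66.7% of the members, 45.1% of the other mitotic genes and 40.8% of all rows.

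The motors of mitosis were mostly low in SLEAR shRNA-3. KIF20A, which brings the chromosomal passenger complex to the spindle midzone, was at 56.2, 66.9 and 14.5 RPM across SLEAR shRNA-1, -2 and -3, with Control at 64.9 RPM. KIF23, the motor of centralspindlin in cytokinesis, was at 12.5, 19.1 and 0 RPM across SLEAR shRNA-1, -2 and -3, with Control at 21.5 RPM, the 0 allowing up to 0.623 RPM by counting alone. KIF4A, a chromokinesin, was at 60.6, 46.9 and 23.1 RPM across SLEAR shRNA-1, -2 and -3, with Control at 50.6 RPM. Of the 9 mitotic kinesin rows of at least 10 RPM, SLEAR shRNA-3 was the lowest library in 7, and in none was it the highest. Over all rows of that level it was the lowest in 40.8% and the highest in 36.7%. KIF2C, the centromeric microtubule depolymerase MCAK, was at 98.2, 102 and 87.0 RPM with the hairpins and 100.4 RPM in Control. KIF18B, which shortens astral microtubules, was at 36.7, 31.5 and 21.8 RPM with the hairpins and 33.4 RPM in Control, and KIF22, a second chromokinesin, at 22.7, 29.5 and 20.4 RPM with the hairpins and 25.3 RPM in Control. KIF20B, of cytokinesis, was at 21.1, 16.9 and 13.5 RPM with the hairpins and 15.3 RPM in Control.

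The exceptions were KIF11 and KIF2A. KIF11, the motor Eg5 that pushes spindle poles apart, was at 24.0, 19.5 and 23.1 RPM across SLEAR shRNA-1, -2 and -3, with Control at 25.3 RPM, and KIF2A, a depolymerase at spindle poles, was at 18.7, 19.8 and 25.8 RPM across SLEAR shRNA-1, -2 and -3, with Control at 30.3 RPM. In both, all 3 hairpin libraries were below Control and SLEAR shRNA-3 was not the lowest of the 4. Of the 12 tested mitotic kinesin rows, none was higher and 4 were lower with every hairpin, against 17.8% and 28.7% of all tested rows. For these 12 rows the log2 difference from Control had a median of -0.05 for SLEAR shRNA-1, -0.09 for SLEAR shRNA-2 and -0.64 for SLEAR shRNA-3. KIF14 was at 10.2, 8.77 and 1.04 RPM with the hairpins and 16.7 RPM in Control, and KIF15 and KIF4B were below 6 RPM in every library. KIF4B is a near copy of KIF4A without introns, so reads may be divided between them. KIF18A was at no more than 0.142 RPM in any library.

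The cyclins, CDK1 and CDC20 did not lie on the same side of Control. CDK1 was at 369, 410.0 and 443 RPM across SLEAR shRNA-1, -2 and -3, with Control at 491 RPM, below Control in all 3. CCNB1, the cyclin that brings CDK1 into mitosis, was at 87.4, 79.3 and 30.7 RPM across SLEAR shRNA-1, -2 and -3, with Control at 98.0 RPM, with SLEAR shRNA-1 and -2 near Control and SLEAR shRNA-3 far below. CCNB2, the other B-type cyclin, was at 207, 204 and 122 RPM across SLEAR shRNA-1, -2 and -3, with Control at 178 RPM, so that SLEAR shRNA-1 and -2 lay above Control and SLEAR shRNA-3 below. CCNA2 and CDC20, given above, were higher in all 3 libraries, and CCNA1, the germ line A-type cyclin, was listed at 0 in all 4. The 5 tested rows had median log2 differences of 0.22, 0.19 and -0.15.

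Of 7 tested rows of checkpoint and mitotic kinases, none was higher in all 3 libraries, and BUB1B and TTK were lower in all 3. Over all tested rows, 17.8% were higher and 28.7% lower in all 3. TTK, the checkpoint kinase MPS1, was at 149.8, 136 and 145 RPM across SLEAR shRNA-1, -2 and -3, with Control at 159 RPM, a small difference. AURKA, the kinase of spindle poles, was at 230.4, 226 and 152 RPM across SLEAR shRNA-1, -2 and -3, with Control at 208 RPM. PLK1, which acts at centrosomes, kinetochores and the midbody, was at 145, 139.8 and 76.6 RPM across SLEAR shRNA-1, -2 and -3, with Control at 115 RPM. AURKB, the kinase of the chromosomal passenger complex, was at 107, 94.0 and 50.7 RPM across SLEAR shRNA-1, -2 and -3, with Control at 104 RPM. For AURKA and PLK1, SLEAR shRNA-1 and -2 lay above Control and SLEAR shRNA-3 below it. BUB3, which recruits its partners to the kinetochore, was at 119, 121 and 99.1 RPM with the hairpins and 115 RPM in Control. Of the 6 rows of at least 10 RPM, SLEAR shRNA-3 was the lowest in 5, against 40.8% of all rows of that level. BUB1 was at 0 to 3.32 RPM with the hairpins and 2.39 RPM in Control.

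**Figure D4:**
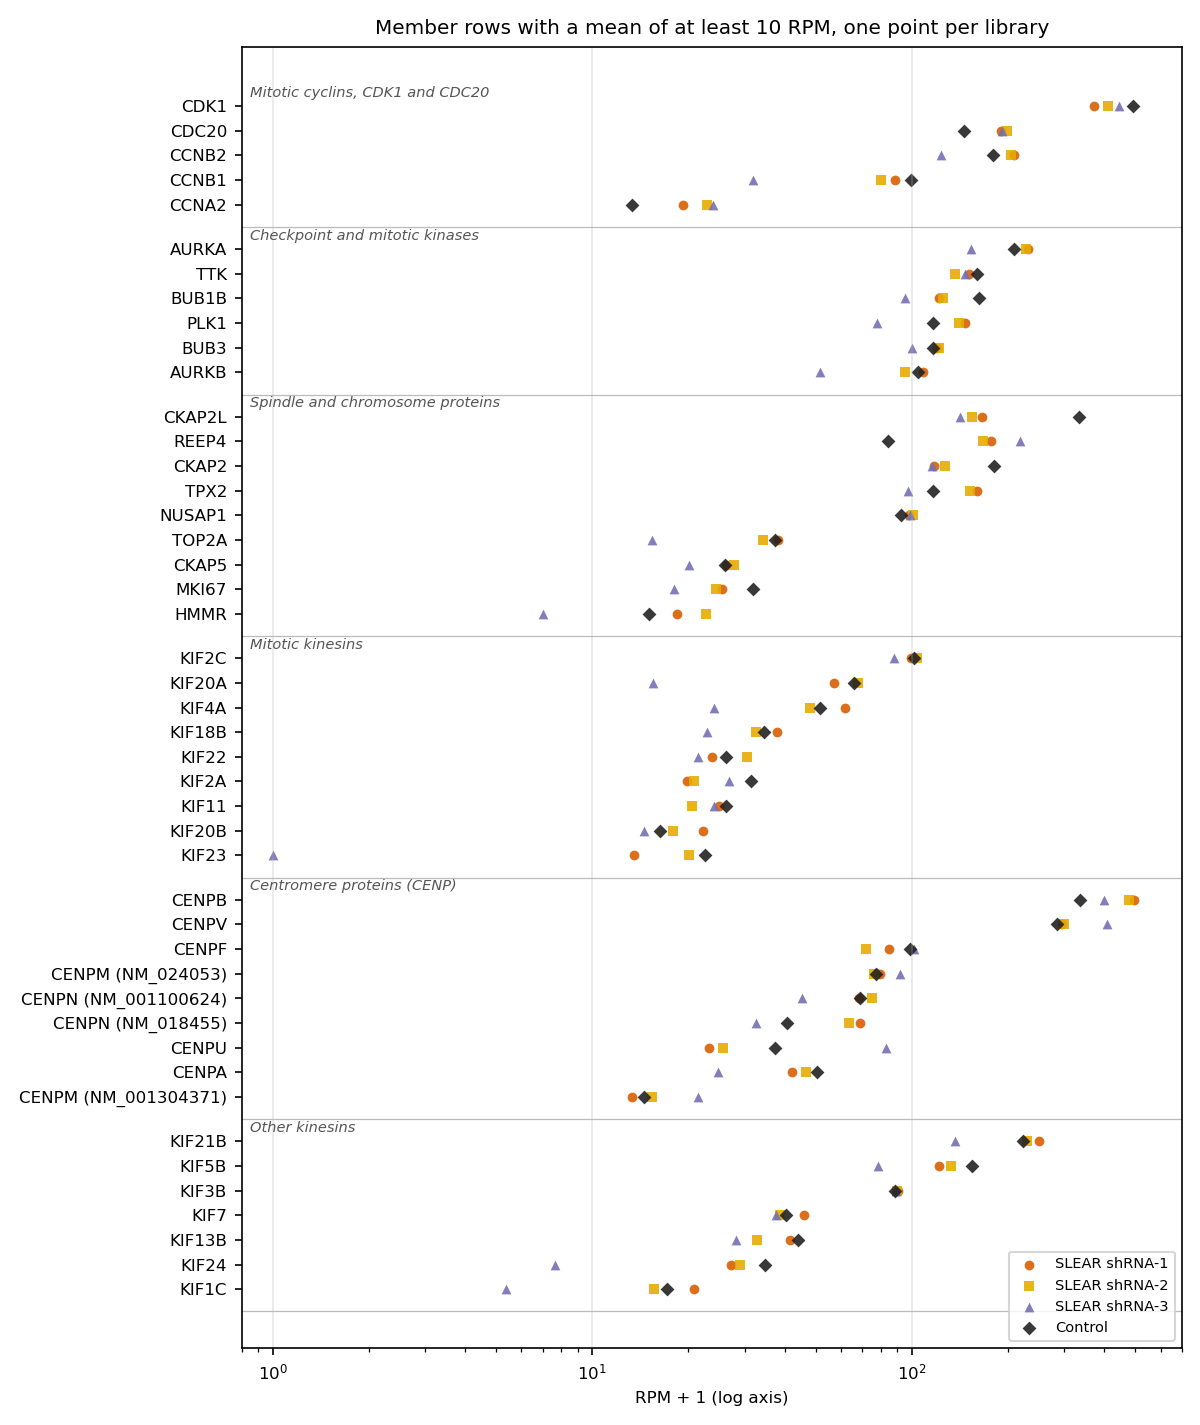
RPM + 1 (x axis, log scale) of the 45 member rows with a mean of at least 10 RPM (y axis, grouped by role and ordered by mean), with 1 point for each SLEAR shRNA library and the Control. SLEAR shRNA-3 lies left of the other points in 30 rows, among them KIF20A, CCNB1 and KIF24, and the Control stands alone on the right for CKAP2L and on the left for REEP4.

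Among the other spindle and chromosome proteins, TPX2, which activates AURKA and seeds microtubules, was at 158, 151 and 96.6 RPM across SLEAR shRNA-1, -2 and -3, with Control at 115 RPM. TOP2A, the topoisomerase that untangles sister chromatids, was at 37.2, 33.1 and 14.3 RPM across SLEAR shRNA-1, -2 and -3, with Control at 36.3 RPM. HMMR, a spindle assembly factor, was at 17.5, 21.7 and 6.02 RPM across SLEAR shRNA-1, -2 and -3, with Control at 14.1 RPM. In all 3 of these rows SLEAR shRNA-3 was the lowest library, while SLEAR shRNA-1 and -2 lay on either side of Control for TOP2A and above it for HMMR and TPX2. MKI67, the Ki-67 protein that coats mitotic chromosomes, was at 24.4, 23.4 and 17.0 RPM with the hairpins and 30.8 RPM in Control, and CKAP5, a microtubule polymerase, at 25.3, 26.8 and 19.1 RPM with the hairpins and 25.05 RPM in Control. NUSAP1, which bundles spindle microtubules, was at 97.2, 100.1 and 97.8 RPM with the hairpins and 91.7 RPM in Control, a narrow range over all 4 libraries. Of the 9 rows, 2 were higher and 3 lower in all 3 hairpin libraries, against 17.8% and 28.7% of all tested rows.

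Among centromere proteins SLEAR shRNA-3 was not mostly the lowest: of 9 rows of at least 10 RPM it was the lowest in 3 and the highest in 5. Over all rows of that level these shares were 40.8% and 36.7%. CENPU, of the constitutive centromere network that stays on centromeres through the cell cycle, was at 22.1, 24.6 and 81.8 RPM across SLEAR shRNA-1, -2 and -3, with Control at 36.4 RPM, so that SLEAR shRNA-3 lay above Control and the other hairpin libraries below it. CENPV, a protein of the kinetochore and spindle midzone, was at 295, 298 and 408 RPM across SLEAR shRNA-1, -2 and -3, with Control at 284 RPM. CENPA, the histone H3 variant that marks centromeres, was at 41.3, 45.6 and 23.7 RPM across SLEAR shRNA-1, -2 and -3, with Control at 49.6 RPM. CENPF, a large protein of the outer kinetochore, was at 83.8, 70.7 and 100.3 RPM with the hairpins and 97.3 RPM in Control. For CENPF the SLEAR shRNA-3 and Control values lay together, above those of SLEAR shRNA-1 and -2.

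CENPM and CENPN, which also belong to the constitutive network, were each spread over several rows. The CENPM row NM_024053 was at 78.6, 75.4 and 90.6 RPM with the hairpins and 76.2 RPM in Control, and its row NM_001304371 at 12.3, 14.4 and 20.4 RPM with the hairpins and 13.5 RPM in Control. The CENPN row NM_001100624 was at 67.2, 73.9 and 44.2 RPM with the hairpins and 68.0 RPM in Control, and its row NM_018455 at the values above. Thus SLEAR shRNA-1 and -2 lay above Control in the second of these CENPN rows and close to it in the first, and the authors' division of reads between rows of a gene was not found in the labels. The other CENP rows were low: CENPT, CENPH, CENPO, CENPK, CENPE, CENPP and the third CENPN row were tested and did not exceed 7.63 RPM in any library, and CENPC, CENPQ, CENPW, CENPI and CENPL stayed below 1 RPM in every library and were not tested.

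Kinesins of transport and signalling, which are not known mainly for mitosis, were also mostly lowest in SLEAR shRNA-3. KIF21B, a motor expressed in lymphocytes and neurons, was at 248, 228 and 135 RPM across SLEAR shRNA-1, -2 and -3, with Control at 222 RPM. KIF24, which acts at centrioles and restrains cilia, was at 26.1, 27.9 and 6.65 RPM across SLEAR shRNA-1, -2 and -3, with Control at 33.6 RPM. KIF1C, a motor of vesicle transport, was at 19.9, 14.6 and 4.36 RPM across SLEAR shRNA-1, -2 and -3, with Control at 16.1 RPM. Of the 7 such rows of at least 10 RPM, SLEAR shRNA-3 was the lowest library in 6, against 40.8% of all rows of that level. It was below SLEAR shRNA-1 and -2 in all 7, against 46.7% of all rows of that level. KIF7, of Hedgehog signalling, was at 45.1, 37.7 and 36.6 RPM with the hairpins and 39.2 RPM in Control, and KIF13B, a motor of cargo transport, at 40.4, 31.8 and 27.2 RPM with the hairpins and 43.1 RPM in Control. KIF3B, a kinesin-2 motor, lay in a narrow range, at 89.7, 89.0 and 88.1 RPM with the hairpins and 87.5 RPM in Control. The motor KIF13A was listed in 3 rows, of which NM_001105568 was at 0.851, 0.266 and 10.8 RPM with the hairpins and 1.55 RPM in Control, another at 0 except for 6.44 RPM in SLEAR shRNA-3, and the last at 0 throughout. The values of the second KIF13A row were identical to those of TM4SF20, and those of KIF21A, below 3 RPM, to FKBP3. KIF16B, KIF1B, KIF5C, KIF26B and KIF3A had at most 13.1 RPM in any library, and KIF17 and KIF19 were listed at 0 in all 4.

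Other genes of mitosis, taken as 9 lists by complex, were also set beside the members. Of their 71 rows of at least 10 RPM, SLEAR shRNA-3 was the lowest library in 32 (45.1%) and the highest in 22 (31%), and its median log2 difference from the mean of SLEAR shRNA-1 and -2 was -0.15. With all libraries, 0 rows of these lists passed limma-trend, as for the table as a whole. In condensin, which compacts chromosomes, 0 of 8 tested rows were higher and 3 lower in all 3 hairpin libraries, against 17.8% and 28.7% of all tested rows. Its SMC4 row was at 751, 762 and 919 RPM with the hairpins and 1254 RPM in Control, and NCAPG2 (row NM_017760) at 291, 226 and 171 RPM against 365 RPM. Both were lower in the fit without SLEAR shRNA-3 described above, in which 2 of 3 condensin rows passed. Over all 4851 rows of that fit, 7.11% were called higher and 7.26% lower.

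Among other spindle and midzone proteins, 3 of 23 tested rows were higher and 11 lower in all 3 hairpin libraries, against 17.8% and 28.7% of all tested rows. In the fit without SLEAR shRNA-3, 2 of 11 rows, PRC1 and ASPM, were called lower, against 7.26% of all rows. PRC1 was at 106, 105 and 210 RPM with the hairpins and 151 RPM in Control, so that SLEAR shRNA-3 lay above Control. ASPM was below Control in all 3, at 101, 97.3 and 128 RPM against 139.8 RPM. STMN1, which destabilizes microtubules, was at 1083, 1064 and 1069 RPM with the hairpins and 1304 RPM in Control (row NM_203399), and TROAP at 186, 166 and 189 RPM and 163 RPM (row NM_005480). For other mitotic kinases and regulators, 4 of 21 rows were higher and 7 lower in all 3. CDC25A, a phosphatase that activates cyclin-dependent kinases, was at 638, 636 and 662 RPM against 896 RPM, and was called lower without SLEAR shRNA-3, and FOXM1, a transcription factor of G2 and M phase genes, at 344, 356 and 570.0 RPM against 445 RPM. FOXM1 therefore lay below Control in SLEAR shRNA-1 and -2 and above it in SLEAR shRNA-3.

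The remaining lists covered the kinetochore, the checkpoint, anaphase and microtubule nucleation. Their counts stand beside 17.8% of all tested rows higher and 28.7% lower in all 3 libraries. Calls without SLEAR shRNA-3 stand beside 7.11% of rows called higher and 7.26% lower in that fit. Of 9 rows of the NDC80, MIS12, KNL1 and SKA complexes, which bind microtubules at the kinetochore, 1 was higher and 3 lower in all 3 libraries, with SKA2 at 69.2, 74.2 and 60.7 RPM against 106 RPM and PMF1 at 38.4, 43.1 and 92.0 RPM against 39.1 RPM, and without SLEAR shRNA-3 SKA2 was called lower. Of 10 further checkpoint rows, 2 were higher and 3 lower, with ZWINT at 233, 226 and 135 RPM against 284 RPM and ZW10 at 91.9, 85.9 and 91.6 RPM against 108 RPM. Without SLEAR shRNA-3, MAD2L2 was called higher and TRIP13 lower. MAD2L2 was above Control in all 3 libraries, at 85.0, 97.4 and 117.8 RPM against 61.8 RPM. TRIP13 was at 38.9, 54.6 and 87.2 RPM against 71.2 RPM, so that SLEAR shRNA-3 lay above Control. Of 6 rows of the chromosomal passenger and shugoshin list, 0 were higher and 2 lower, with CDCA8 at 330.4, 286 and 224 RPM against 309 RPM and CDCA5 at 74.8, 78.8 and 25.5 RPM against 59.5 RPM. Of 17 rows of the anaphase promoting complex and separase list, 2 were higher and 4 lower, with UBE2S at 859, 885 and 1128 RPM against 700.3 RPM and PTTG1, securin, at 416, 389 and 156 RPM against 377 RPM. Of 21 rows of the augmin and gamma-tubulin complexes, which nucleate microtubules, 3 were higher and 5 lower, with MZT2B at 512, 522 and 573 RPM against 431 RPM and MZT2A at 459, 465 and 623 RPM against 424 RPM. Among tubulins, 3 of 10 rows were higher and 2 lower, with TUBA1B at 12436, 11793 and 7286 RPM against 10755 RPM and TUBA1A at 2138, 2364 and 1909 RPM against 2693 RPM. MZT2A and MZT2B, and the tubulin genes, have near-identical copies that can share reads, and their values are uncertain.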

How the data were processed

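Polyadenylated RNA of Jurkat cells was sequenced by MAPS, a multiplexed method that reads next to the poly(A) tail, in 3 SLEAR shRNA libraries and 1 Control library, per the labels' protocols. The authors deposited 1 table of RPM values per transcript row. Tools listed by the submitters' processing notes were Bowtie2, FastQC and SAMtools, with build hg19. The assignment of reads to rows was not given in the sources used here, and column totals differed (842852.8 to 885035.9 RPM).

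Low values were whole multiples of 1 step within 0.05 reads in 96.2% to 96.7% of rows below 50 reads, which gave the depths. As the rest were not whole, no count test was run except limma-voom, as an alternative, on reads estimated from the steps and rounded. Rows with identical values were merged where their mean reached 10 RPM (60 removed, 0 members). All rows were fitted with limma-trend (limma 3.58.1, R 4.3.3) on log2(RPM + 1), which understates changes of low rows, keeping rows that reached 1 RPM in any library, and p-values were adjusted over them by Benjamini-Hochberg. The scripts were tested on simulated data with the same spread in every library apart from counting error, which does not cover a library that stands apart as SLEAR shRNA-3 did. Member rows with a mean of at least 10 RPM were named, with full statistics for the 6 smallest p in each direction, and the 2 highest rows of each other list. Promoters came from RefSeq (GRCh38.p14) by symbol, and no coordinates of the files' build are given. Alternatives were TMM (computed by the published formula) and upper-quartile scaling, other pseudocounts and filters, limma-voom on estimated reads, summed rows, array weights and leaving out each SLEAR shRNA library. The members and lists were chosen with earlier results of these data known.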

Additional observations from a re-analysis of the deposited data

How the results depend on the processing

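The calls rested on 1 Control library and on the choice of libraries. Over the fits that left out a SLEAR shRNA library, the number of rows past the threshold ranged from 0 to 697 and of member rows from 0 to 5, and the nonzero values came only without SLEAR shRNA-3 among rows whose mean log2 value reached 4. Leaving out 1 library alone gave 10 to 22 member rows higher in all remaining SLEAR shRNA libraries and 25 to 29 lower, against 9 and 21 with all. Such counts cannot fall, since fewer libraries have to agree over the same rows. The 22 came without SLEAR shRNA-3, a share of 32.8% against 35.1% of all tested rows. Without it and where the mean log2 value also reached 4, with fewer rows tested, 16 were higher and 15 lower. With that filter and all libraries, 13 were lower, because fewer rows were tested. The mean log2 value of that filter was always taken over all 4 libraries, SLEAR shRNA-3 included. TMM or upper-quartile scaling, pseudocounts of 0.1 and 5, other filters, limma-voom, summed rows and array weights called 0 rows. No log2 difference given for a member changed sign under any alternative. The count of members lowest in SLEAR shRNA-3 was 30 to 32 under both scalings and with rows summed, alternatives chosen after the data were seen. No paired analysis was possible because the Control label carries no number and the groups share fewer than 2. Depth limits rows of a few RPM, above all in SLEAR shRNA-3.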
